A study of Mus musculus with 3 samples.

Results

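The genes described here carry out peptide presentation on MHC class II. They are H2-Aa, H2-Ab1 and H2-Eb1, which encode chains of the class II molecules, Cd74 (the invariant chain), H2-DMa and H2-Oa (subunits of the peptide-loading molecules), Ciita (the class II transactivator) and Ctss (cathepsin S). These 8 genes were chosen by name out of the 32285 genes of the deposited matrix, and all 8 were detected. Their counts of unique molecular identifiers (UMIs, each a tag for 1 captured RNA molecule) were read in 1 droplet lane of a single-cell transcriptome run that held 2 pools of mouse thymus cultures on culture day 13. The ORFTOC pool (organoid reaggregate fetal thymic organ culture) was reaggregated from organoid-grown epithelial cells of the thymus (TECs) taken at E16.5, EpCAM-depleted cells of E13.5 thymi, which keep fetal mesenchymal and blood cells, and mouse embryonic fibroblasts. The FTOC pool (fetal thymic organ culture) held intact E13.5 thymic lobes, so the epithelium of the pools differed in donor age as well as in organoid culture. The thymus cells of both pools were from wild-type C57BL/6J mice, and the fibroblasts were described as wild-type without a strain. Both pools were kept in the same medium with FGF7, serum and, at the start of culture, the kinase inhibitor thiazovivin. In each pool 2 cultures were mixed before a hashtag antibody was added, so each pool was 1 sample. No test between pools was therefore possible and no p-value is given, and all intervals are 95% intervals that cover counting error only.

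Class II molecules hold peptides from endosomes for CD4 T cells. The invariant chain guides new class II chains to endosomes and blocks their groove, cathepsins S and L trim it, and H2-DM then exchanges its last fragment for other peptides, an activity that H2-O restrains. Ciita is not a DNA-binding protein but is recruited to the X and Y boxes of class II promoters, and interferon gamma is the classical inducer of its expression outside professional antigen-presenting cells. In the thymus, class II on cortical TECs (cTECs) serves positive selection of CD4 thymocytes, and class II on medullary TECs (mTECs) and dendritic cells serves tolerance.

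H2-Aa, H2-Ab1, H2-Eb1, H2-DMa and H2-Oa, with the loading partners H2-DMb1, H2-DMb2 and H2-Ob, lie within 224296 bases of chromosome 17 (34092379 to 34316674, GRCm38.p6). Ciita lies on chromosome 16 (10480014 to 10531064) and Ctss on chromosome 3 (95526786 to 95556405). Promoter sequences from RefSeq (GRCm38.p6), 5′ to 3′ on the strand of each gene, were searched for a core of the X box (GCAAC) followed on the same strand by a core of the Y box (GATTGG) after 15 to 45 bases. They are shown because these genes share the arrangement although their levels, given below, differed widely. Capitals mark both cores.

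H2-Aa: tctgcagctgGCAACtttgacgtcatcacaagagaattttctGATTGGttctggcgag
H2-Eb1: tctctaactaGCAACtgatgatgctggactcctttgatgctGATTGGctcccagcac
H2-Oa: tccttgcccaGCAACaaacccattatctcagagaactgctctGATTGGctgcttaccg
H2-Ob: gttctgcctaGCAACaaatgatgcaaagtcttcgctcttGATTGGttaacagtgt

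The H2-Aa stretch lies at chr17:34287857-34287914 on the minus strand, and the X-box core begins 81 bases before the start of the gene. The plus-strand stretches of H2-Eb1 (chr17:34305766-34305822), H2-Oa (chr17:34092293-34092350) and H2-Ob (chr17:34238808-34238862) have this core 91, 76 and 87 bases before the start. The cores are 24 to 27 bases apart in these 4 genes. H2-Eb2, a further class II gene that was searched but is not printed, also held the pair. Its cores are 26 bases apart, with the X-box core 132 bases before the start. Of 32851 promoter windows of 250 bases, searched on both strands, 29.9% held the X-type core, 14.6% held the Y-type core and 0.432% held the pair. The windows of H2-DMa, H2-DMb1, H2-DMb2 and Ctss did not hold the pair, which says only that these letters were not in that order and spacing there. H2-Ab1, Cd74 and Ciita had no entry in the promoter table.

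In all, 4248 ORFTOC cells (42775371 UMIs, median 8053 per cell) and 4144 FTOC cells (29250988 UMIs, median 4952) were analysed. Populations were clustered without the class II genes, so the levels of these genes had no part in the clustering. The rule that removed doublets within pools before clustering did not leave them out. cTECs (255 ORFTOC and 36 FTOC cells) carried their defining genes Prss16 and Psmb11, at 3066 and 840 CPM over both pools (CPM, UMIs per 1000000 UMIs of the same cells). The 7 cTEC markers summed to 16450 CPM in ORFTOC cTECs and 9250 CPM in FTOC ones. Ccl21a mTECs (341 and 256 cells) carried Ccl21a at 1685 CPM and Krt5 at 2588 CPM. Aire mTECs (35 and 64 cells) carried Aire at 399 CPM and Fezf2 at 290 CPM, but Ccl22 of their list was at 0. Airway-like epithelial cells (345 and 109 cells) carried Bpifa1 at 64260 CPM. Macrophages (141 and 46 cells) carried C1qa in 96.3% and Csf1r in 88.2% of cells. Dendritic cells (25 and 3 cells) carried Fscn1 in all cells, Batf3 in 75% and Flt3 in 50%, while Xcr1, Clec9a and Cd209a, which mark conventional dendritic subsets, were at 0. The FTOC values of dendritic cells rest on 3 cells, and no ratio between pools was formed for them.

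Of the chains, H2-Aa and H2-Eb1 were highest in Aire mTECs and dendritic cells, and H2-Ab1 in Aire mTECs. H2-Aa, the α chain of H2-A, stood at 6787 CPM in ORFTOC Aire mTECs (6590 to 6988) and 6781 in FTOC Aire mTECs (6644 to 6919). In dendritic cells its level was 6621 CPM (6289 to 6967) in the ORFTOC pool and 7736 CPM (6570 to 9050) in the FTOC pool, so that these populations did not differ beyond counting error in either pool. In cTECs H2-Aa was at 4317 CPM in the ORFTOC pool and at 3312 CPM in the FTOC pool, and in Ccl21a mTECs at 3081 and 3443. Macrophages held 1582 CPM in ORFTOC and 417 in FTOC, and airway-like cells 985 and 565. In both pools Aire mTECs and dendritic cells thus stood above the others, whereas macrophages and airway-like cells changed places between the pools. cTECs stood above Ccl21a mTECs in ORFTOC, but in FTOC their H2-Aa values lay close together and no order is read there.

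Markers of immune cells were higher in Aire mTECs than in other TECs. The 4 immune compartment markers, all detected, summed to 529.5 CPM in ORFTOC and 562.5 CPM in FTOC Aire mTECs, against 27.3 to 52.9 CPM in Ccl21a mTECs and cTECs. Of the 10 dendritic markers 6 were detected in Aire mTECs and summed to 374 and 406 CPM. In an alternative, cells with at least 2 UMIs of the markers of another compartment were left out. This kept 8 of 35 ORFTOC and 11 of 64 FTOC Aire mTECs, too few for a ratio. What part these markers had in the class II level was not tested.

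Summed over the 3 chains, the level in Aire mTECs was 1.49 times that in cTECs in ORFTOC (1.46 to 1.52) and 1.74 times in FTOC (1.69 to 1.79). It was 1.94 times that in Ccl21a mTECs in ORFTOC (1.90 to 1.98) and 1.61 times in FTOC (1.58 to 1.63). cTECs exceeded Ccl21a mTECs by 1.304 times in ORFTOC (1.29 to 1.32), but in FTOC their ratio was 0.924 (0.897 to 0.951), and this latter direction turned under 3 of the alternative ways of processing. The unnamed epithelial clusters 3 (led by Igfbp2, Ndrg1 and Aqp3) and 4 lay below Ccl21a mTECs, with H2-Aa at 2515 and 2632 CPM in ORFTOC and 2066 and 2521 in FTOC. Tuft-like cells stood lowest among the epithelial classes, with H2-Aa at 311 CPM in 21 ORFTOC cells and 78.8 CPM in 4 FTOC cells.

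Single cells showed how evenly the chains were spread. The middle cTEC of ORFTOC held 11050 CPM of the chains, with a range from 8591 (10th percentile) to 15120 (90th percentile). In Aire mTECs of ORFTOC the same range ran from 5748 to 33430 CPM, and in macrophages from 0 to 21710 CPM around a median of 230. cTECs were therefore narrow and macrophages wide, with many cells at 0 and some at or above the level of Aire mTECs.

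**Figure D1:**
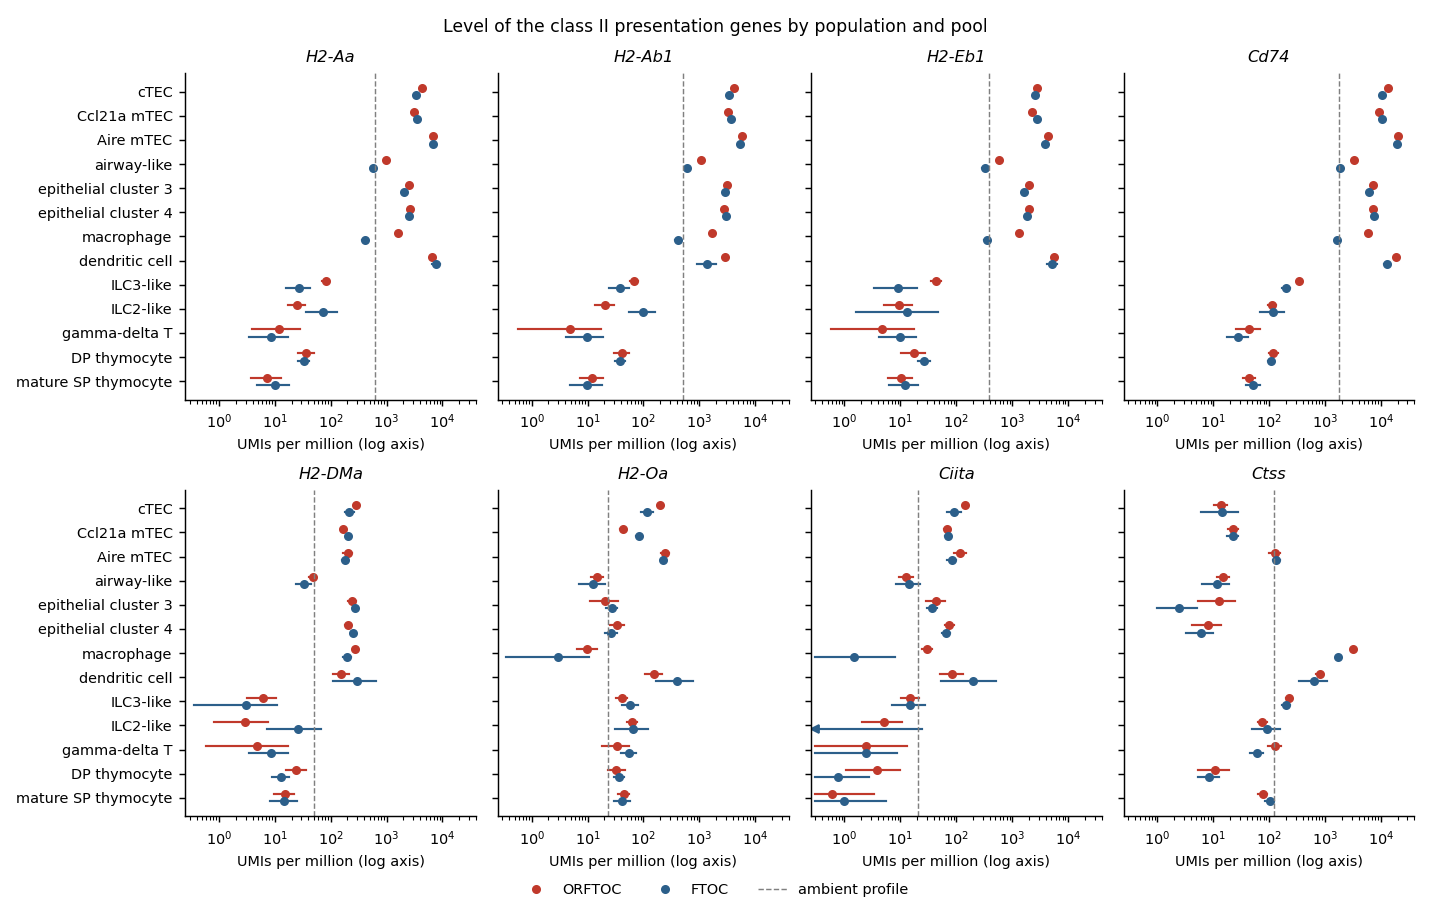
CPM (log axis) of the 8 genes in each population (rows), with 95% counting intervals, for ORFTOC and FTOC. The dashed grey line is the level in the ambient profile. H2-Aa reaches 6787 and 6781 CPM in Aire mTECs and 1582 and 417 CPM in macrophages, while Ctss is highest in macrophages (3161 and 1695 CPM) and stays near 14 CPM in cTECs.

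H2-Ab1 encodes the β chain that pairs with H2-Aa. It stood at 5743 CPM in ORFTOC Aire mTECs and 5277 in FTOC ones, 4239 and 3344 in cTECs, 3307 and 3739 in Ccl21a mTECs, and 2912 and 1389 in dendritic cells. UMIs of different genes were not divided by length, so a ratio between genes is read only across populations and not as a ratio of levels. For each UMI of H2-Aa, cTECs held 0.982 UMIs of H2-Ab1 in ORFTOC (0.962 to 1.00) and 1.01 in FTOC (0.946 to 1.08). Ccl21a mTECs held 1.07 and 1.09, and macrophages 1.09 and 1.00. Aire mTECs held fewer, at 0.846 in ORFTOC (0.810 to 0.884) and 0.778 in FTOC (0.755 to 0.803). Dendritic cells held the fewest, with 653 H2-Ab1 and 1485 H2-Aa UMIs in ORFTOC, a ratio of 0.440 (0.401 to 0.482). In FTOC the dendritic ratio was 0.180 (0.116 to 0.270) from 28 and 156 UMIs in 3 cells. In 24 of the 25 ORFTOC dendritic cells H2-Aa exceeded H2-Ab1, as it did in 80% of Aire mTECs against 37.8% of Ccl21a mTECs. Epithelial cluster 3 lay at the other end, with 1.25 H2-Ab1 UMIs per H2-Aa UMI in ORFTOC and 1.40 in FTOC. Subtraction of ambient RNA left the dendritic ratio at 0.437 in ORFTOC and 0.175 in FTOC.

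H2-Eb1, the β chain of H2-E, followed the other chains, with 4343 CPM in ORFTOC Aire mTECs and 3952 in FTOC ones. cTECs held 2795 and 2551 CPM of it, and Ccl21a mTECs 2313 and 2788. Dendritic cells held 5556 and 5207 CPM, more than any epithelial population. These RNA levels do not show that H2-E molecules were formed, and the gene of the H2-E α chain was not among those read.

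Cd74 was the most abundant of the 8 genes by UMIs. It reached 20140 CPM in ORFTOC Aire mTECs (19800 to 20490) and 19250 in FTOC ones (19020 to 19490). Dendritic cells held 18520 CPM in ORFTOC and 12990 in FTOC. cTECs held 13300 and 10630 CPM, Ccl21a mTECs 9323 and 10470, and macrophages 5865 and 1624. Cd74 kept a nearly fixed proportion to H2-Aa: in the named epithelial populations other than tuft-like cells, and in macrophages, there were 2.84 to 3.90 Cd74 UMIs per H2-Aa UMI. Below this range lay dendritic cells, at 2.797 in ORFTOC (2.64 to 2.97) and 1.68 in the 3 FTOC cells (1.37 to 2.06), and ORFTOC cells of epithelial cluster 4, at 2.805 (2.705 to 2.91).

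**Figure D2:**
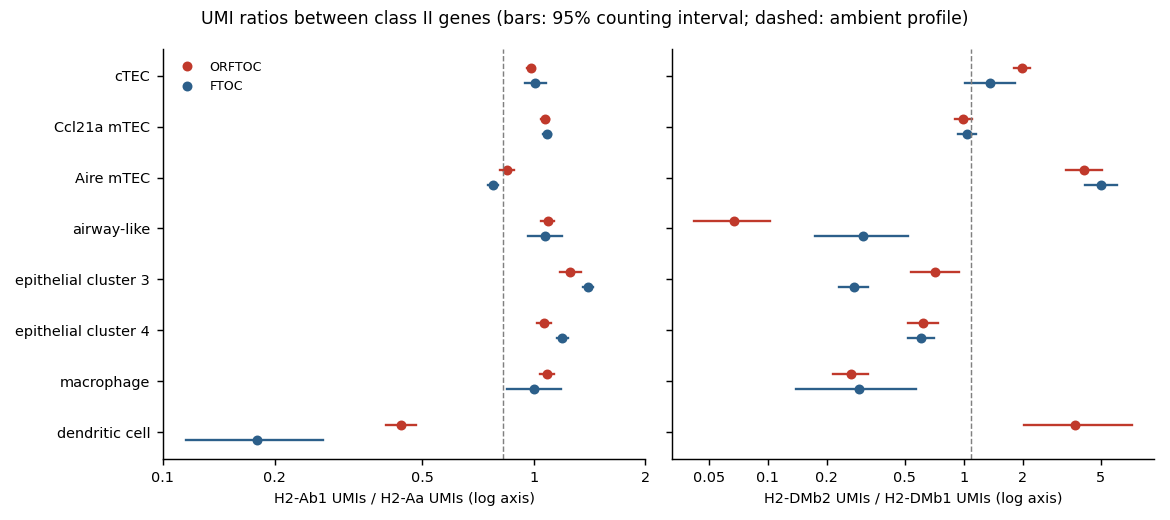
UMIs of one gene per UMI of another by population and pool, with 95% counting intervals and the ratio in the ambient profile as a dashed line. H2-Ab1 per H2-Aa lies near 1 in cTECs and macrophages and at 0.440 in ORFTOC dendritic cells, and H2-DMb2 per H2-DMb1 ranges from 0.0671 in ORFTOC airway-like cells to 5.01 in FTOC Aire mTECs.

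H2-DMa, the α subunit of H2-DM, differed less between macrophages and TECs than the chains did. It stood at 280 CPM in cTECs, 275 in macrophages, 201 in Aire mTECs and 165 in Ccl21a mTECs of ORFTOC. In FTOC the values were 215, 195, 181 and 207 CPM in the same order. The ratio of cTECs to macrophages was 1.02 in ORFTOC (0.926 to 1.12) and 1.10 in FTOC (0.853 to 1.42), where the chains differed by 2.45 and 7.76 times. Airway-like cells held less H2-DMa, at 48.1 CPM in ORFTOC and 33.3 in FTOC. H2-DMa overlaps Brd2 over 3122 bases, and how reads of that stretch were assigned was not examined.

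The β subunit of H2-DM is encoded by the near-identical genes H2-DMb1 and H2-DMb2, which share reads, so that their split is uncertain. Taken as counted, H2-DMb2 stood at 667 CPM in ORFTOC Aire mTECs and 504 in FTOC ones, against 46.2 and 17.5 in macrophages. H2-DMb1 stood at 163 and 101 CPM in Aire mTECs and 174 and 59.7 in macrophages. There were 4.09 H2-DMb2 UMIs per H2-DMb1 UMI in ORFTOC Aire mTECs (3.31 to 5.10) and 5.01 in FTOC ones (4.17 to 6.05). cTECs held 1.98 and 1.36, Ccl21a mTECs 0.994 and 1.04, macrophages 0.265 and 0.293, and airway-like cells 0.0671 and 0.307. The populations thus spread over a wide range, with Aire mTECs and macrophages far apart in both pools.

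H2-Oa, the α subunit of H2-O, was highest in Aire mTECs, cTECs and dendritic cells. It stood at 244 CPM in ORFTOC Aire mTECs (208 to 285) and 227 in FTOC ones (202 to 253). cTECs held 196 and 116 CPM, Ccl21a mTECs 43.3 and 83.6, and dendritic cells 156 in ORFTOC and 397 in FTOC, the latter from 8 UMIs. Macrophages, which resembled cTECs in H2-DMa, held 27 H2-Oa UMIs in ORFTOC (9.98 CPM) and 2 in FTOC. The ORFTOC ratio of cTECs to macrophages was 19.6 (13.4 to 29.9). H2-Ob, the β subunit, was found at 15.1 and 17.3 CPM in Aire mTECs and at 2.72 CPM or less in cTECs, Ccl21a mTECs, macrophages and dendritic cells. H2-Oa lies wholly within the long non-coding gene BC051537 (2856 of 2856 bases), to which at most 2.76 CPM were assigned in the populations examined.

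Ciita was highest in TECs and dendritic cells. cTECs held 146 CPM in ORFTOC and 91.3 in FTOC, Aire mTECs 118 and 84.2, and Ccl21a mTECs 68.7 and 71.9. Dendritic cells held 84.7 CPM from 19 UMIs in ORFTOC and 198 CPM from 4 UMIs in FTOC. Airway-like cells held 12.7 and 14.1 CPM, and macrophages 30.3 CPM in ORFTOC and 1.46 in FTOC. Ciita shares 858 bases with Dexi. Among TECs the highest value was that of cTECs, but the interval of the ratio of Aire mTECs to cTECs held 1 in both pools (0.630 to 1.03 in ORFTOC and 0.659 to 1.31 in FTOC).

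Ctss, a lysosomal protease that trims the invariant chain in antigen-presenting cells of the blood lineage, had another order, with macrophages first. ORFTOC macrophages held 3161 CPM (3095 to 3229) and FTOC macrophages 1695 CPM (1599 to 1796). Dendritic cells held 807 and 645 CPM, Aire mTECs 127 and 136, Ccl21a mTECs 22.8 and 22.5, and cTECs 13.6 and 14.3. The macrophage level was 233 times that of cTECs in ORFTOC and 118 times in FTOC. Ctsl, the cathepsin that takes this role in cTECs, ran the other way, at 22170 CPM in ORFTOC cTECs and 16170 in FTOC ones. Ctsl was at 908 and 899 CPM in macrophages, 495 and 783 in Aire mTECs and 17.8 CPM, from 4 UMIs, in ORFTOC dendritic cells. The Aire mTEC values of Ctsl were 1.13 and 1.69 times the level expected from free RNA, and the ORFTOC dendritic value was 0.291 times it, against 630 and 686 times in cTECs. In Aire mTECs that expected level rests on a share of free RNA of 45.3% and 48.1%, estimated from the immune markers that were high there, so Ctsl could not be told from background in them. Among the other proteases and thiol reductases of the pathway, Lgmn stood at 1231 and 1403 CPM in macrophages against 12.1 and 13.7 in Aire mTECs. Ifi30 stood at 1706 and 1553 CPM in macrophages, 742 and 654 in Aire mTECs and 379 and 297 in cTECs.

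The pools were then compared within populations, to ask whether TECs taken through organoid culture, and the blood cells that developed with them, carry the presentation genes at the level of cultured lobes. A gene counted as higher or lower when its CPM differed at least 2-fold, among genes with at least 50 UMIs over both pools. In cTECs 0 of 8 members were called in either direction, where 6.08% of 8394 genes were higher and 2.18% lower in ORFTOC. In Ccl21a mTECs 0 of 8 were called (2.51% and 1.01% of all genes), in Aire mTECs 0 of 8 (3.05% and 3.72%) and in airway-like cells 0 of 8 (3.33% and 1.75%). In macrophages 5 of the 7 members with enough UMIs were higher in ORFTOC (H2-Aa, H2-Ab1, H2-Eb1, Cd74 and Ciita) and 0 were lower, where 2.23% of 6690 genes were higher and 3.35% lower. In ILC3-like cells 2 of 6 (H2-Aa and H2-Eb1) were higher and 0 lower, against 1.51% and 0.851% of all genes. Some members also differed in other clusters. In the unnamed cluster 15 of the immune compartment (64 and 63 cells) the chain ratio was 3.13 (2.78 to 3.53). This cluster was led by Pth, Chga and Mt3, and its closest marker list was that of parathyroid. The 4 epithelial markers summed to 2631 and 3020 CPM there and the 4 immune markers to 1574 and 748 CPM, so it is not read as an immune population. In immune cluster 5 the Cd74 ratio was 0.442 (0.289 to 0.670) from 41 and 58 UMIs. These were 13.7 and 31.02 CPM, under the 120 and 108.7 CPM of double-positive thymocytes, whose Cd74 is read as background later. In epithelial cluster 7 the H2-Oa ratio was 0.471 (0.295 to 0.739). This cluster was led by Ms4a4b, Cd3d and Cd8b1, and its 4 immune markers summed to 1105 and 915 CPM. Its H2-Oa ratio is therefore not read as a difference in epithelial cells. Ctss had a ratio of 2.10 in γδ T cells (1.398 to 3.15), and in mesenchymal cells it had 51 UMIs in ORFTOC and 0 in FTOC. The members differ from the genes of each table in abundance and are not independent of each other, so these shares are a description.

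In TECs the ratios of ORFTOC over FTOC were small. For the summed chains the ratio was 1.23 in cTECs (1.198 to 1.27), 0.873 in Ccl21a mTECs (0.861 to 0.885) and 1.05 in Aire mTECs (1.03 to 1.08). On the log2 scale the cTEC value was 0.30 and ran from 0.19 to 0.38 over 10 other ways of processing. Those of Ccl21a mTECs (-0.20) and Aire mTECs (0.08) changed sign in some of them. Marker gates took in 313 ORFTOC and 208 FTOC cTECs, against 255 and 36 by cluster, with a log2 chain ratio of 0.251. Most FTOC cells that passed the cTEC gate thus lay outside the cTEC cluster, and the cTEC ratios given here do not cover them. The largest TEC differences were in H2-Oa, which was 1.68 times higher in ORFTOC cTECs (1.31 to 2.201) and had a ratio of 0.518 in Ccl21a mTECs (0.432 to 0.620). These kept their directions in every alternative that gave a value. Ciita was 1.595 times higher in ORFTOC cTECs (1.197 to 2.17), and its ratio in Ccl21a mTECs was 0.955 (0.809 to 1.13). Ctss did not differ beyond counting error in any of the 3 TEC populations, with a cTEC ratio of 0.949 (0.450 to 2.31) from 55 and 8 UMIs.

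Airway-like cells, which line mucosal surfaces elsewhere in the body and here are marked by the secretory gene Bpifa1, held more class II in ORFTOC. H2-Aa stood at 985 against 565 CPM, H2-Ab1 at 1073 against 607, H2-Eb1 at 593 against 322 and Cd74 at 3284 against 1881. The ratio of the summed chains was 1.78 (1.69 to 1.87), or 0.83 on the log2 scale, and from 0.24 with 30 principal components to 1.16 with a minimum of 1000 genes over 9 other ways of processing. Of the FTOC cells, 7 held 49.8% of the chain UMIs, and without the 5 highest cells of each pool the levels were 2466 and 937 CPM, a log2 ratio of 1.396. Since 5 cells are a larger part of 109 FTOC than of 345 ORFTOC cells, this ratio shows only how much a few cells carried. Macrophage markers summed to 206 CPM in ORFTOC airway-like cells (7 of 9 detected) and 101.5 CPM in FTOC ones (6 of 9), and their part was not tested. In FTOC 46.8% of these cells held 5 or fewer chain UMIs (37.2 to 56.6), against 12.8% in ORFTOC (9.42 to 16.7), at median depths of 11057 and 11568 UMIs per cell. When cells were thinned to 2000 UMIs, 92.4% of 340 ORFTOC cells held at least 1 chain UMI (89.0 to 94.9) and 62.0% of 108 FTOC cells did (52.2 to 71.2). The Ciita ratio was 0.896 (0.511 to 1.65), so that a difference in Ciita was not detectable at this depth.

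**Figure D3:**
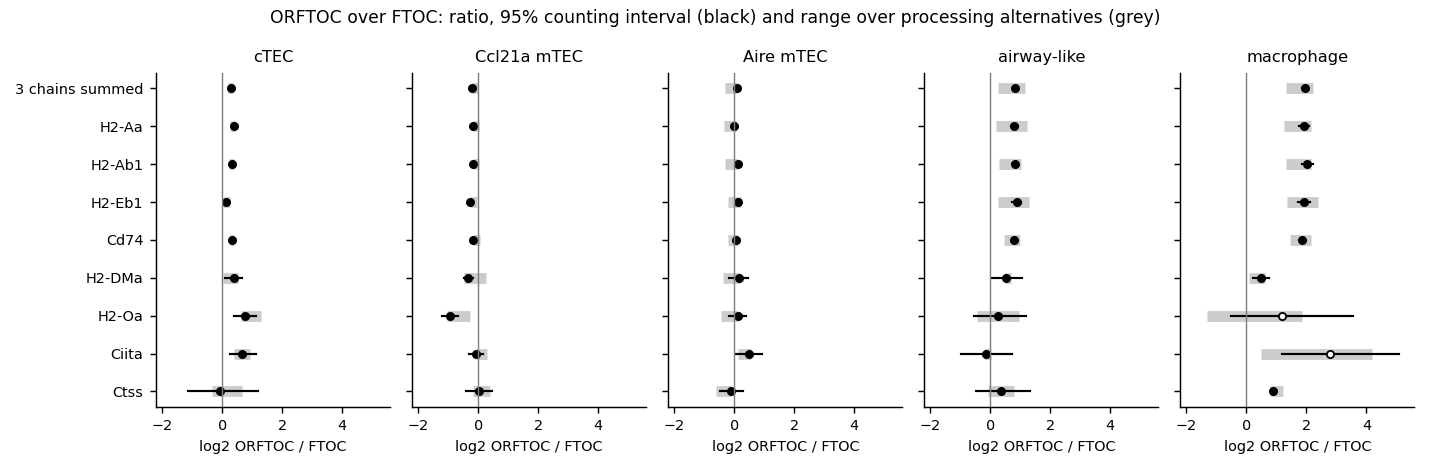
Log2 ratio of ORFTOC over FTOC for the summed chains and each of the 8 genes in 5 populations. Black points and lines are ratios with 95% counting intervals, hollow points rest on a count under 3 that was set to 3, and grey bars span the other ways of processing. The chains and Cd74 lie near 0 in cTECs, Ccl21a mTECs and Aire mTECs and between 1.85 and 2.04 in macrophages.

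Macrophages, which clear apoptotic thymocytes and carry class II to a variable degree, differed most between the pools. Their H2-Aa level was 1582 CPM (1535 to 1630) in the ORFTOC pool and 417 CPM (370 to 468) in the FTOC pool, a ratio of 3.80 (3.37 to 4.30). The ratio was 4.11 for H2-Ab1 (3.64 to 4.64), 3.77 for H2-Eb1 (3.31 to 4.31) and 3.61 for Cd74 (3.398 to 3.84). Ciita had 82 UMIs in ORFTOC macrophages and 1 in FTOC macrophages. With that count set to 3 its ratio was 6.94 (2.29 to 34.3). The Ciita difference shrank to 0.48 on the log2 scale, from 2.80, when cells that held at least 2 UMIs of the markers of another compartment were left out, which kept 92 ORFTOC and 36 FTOC macrophages. In those cells the log2 ratio was 1.26 for H2-Aa, 1.33 for H2-Ab1, 1.36 for H2-Eb1, 1.44 for Cd74 and 0.11 for H2-DMa. Over all macrophages the ratio was smaller for Ctss, at 1.87 (1.75 to 1.98), and for H2-DMa, at 1.41 (1.17 to 1.71). H2-Oa had 27 UMIs in ORFTOC and 2 in FTOC, and with the latter set to 3 its ratio was 2.285 (0.703 to 11.77). Its log2 ratio went from 1.192 to -1.323 without cells that held markers of another compartment, so no direction is read for it. On the log2 scale the chain ratio was 1.96. It was 1.32 without cells that held markers of another compartment and ran up to 2.23 with marker gates in place of clusters. Its direction was the same in all 10 other ways of processing.

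Of the 20 further genes of the class II pathway, 15 had enough UMIs in macrophages, and 2 of them (H2-DMb1 and H2-DMb2) were higher in ORFTOC and 0 lower. H2-DMb1 had a ratio of 2.92 (2.12 to 4.12) and H2-DMb2 one of 2.64 (1.46 to 5.26). The list included the factors that bind class II promoters (the Rfx and Nfy subunits and Creb1), endosomal proteases, and the regulators of class II turnover Cd83, March1 and March8. Its median log2 ratio was 0.06, against -0.09 over all 6690 genes and 1.91 over the members. Of the 6 genes of the interferon gamma list 5 had enough UMIs, 0 were higher in ORFTOC and 2 were lower. Irf1, a transcription factor induced by interferon, had a ratio of 0.322 (0.255 to 0.406), and Socs1, a feedback inhibitor of the same pathway, had one of 0.373 (0.290 to 0.481). In cTECs the same list went the other way in part, with Irf1 at a ratio of 1.602 (1.31 to 1.98) and Socs1 at 1.54 (1.24 to 1.93), and none of its genes reached 2-fold. In cTECs 1 of 17 genes of the pathway list was called (Cd83, 31.4 against 5.37 CPM). This was 5.88%, near the 6.08% of all genes that were higher there, and with a minimum of 200 UMIs 0 of 9 were called. In Aire mTECs 1 of 11 was called (Ctsb, 288 against 137 CPM), where 3.05% of all genes were higher. The calls were 0 of 17 in Ccl21a mTECs and 0 of 15 in airway-like cells.

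Few macrophages carried most of the class II RNA. In ORFTOC, 32 of 141 macrophages (22.7%, 16.1 to 30.5) held more than 50 chain UMIs and together 94.9% of the chain UMIs. In FTOC, 4 of 46 did (8.70%, 2.42 to 20.8), with 86.9% of the chain UMIs. These limits were chosen after the values had been seen. No chain UMI was found in 41 ORFTOC and 20 FTOC macrophages. The median depth of macrophages was 19534 UMIs in ORFTOC and 13749 in FTOC. With cells thinned to 2000 UMIs, at least 1 chain UMI was found in 48.9% of 135 ORFTOC macrophages (40.2 to 57.6) and 19.5% of 41 FTOC macrophages (8.82 to 34.9). These intervals cover counting error within each pool and are no test between the pools. H2-Aa alone, with cells thinned to 1000 UMIs, was found in 29.1% of ORFTOC macrophages (21.7 to 37.3) and 13.0% of FTOC ones (4.94 to 26.3), at full depth in 56.0% and 26.1%. In double-positive (DP) thymocytes, which should lack class II, it was found in 3.88% and 3.61% of thinned cells and in 6.05% and 5.58% at full depth, where the median depth was 1589 and 1621 UMIs. Without the 5 highest cells of each pool the chain level was 3217 CPM in ORFTOC and 106 CPM in FTOC, against 4627 and 1187 with them. The FTOC level therefore rested on 5 of its 46 cells, and the log2 ratio between the pools was 4.93 without the 5 highest cells of each, against 1.96 with them. These cells were picked by their chain UMIs, and 5 cells are a larger part of 46 than of 141. The rise of the ratio is therefore not read as a larger difference between the pools.

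The high-class II macrophages were described further in ORFTOC, where there were 32. They held Ciita at 124 CPM, near the level of Aire mTECs, against 1.25 CPM in the 41 cells without chain UMIs. Cd74 stood at 21510 against 252 CPM and H2-DMa at 684 against 110 CPM. H2-DMb1 stood at 544 against 30.02 CPM. Ctss stood at 2192 against 3058 CPM and so did not rise with the chains. Macrophage genes were present, with Csf1r at 663 against 569 CPM and C1qa at 3731 against 3677 CPM. The 9 macrophage markers summed to 19510 CPM in the high cells and 26150 CPM in cells without chain UMIs, and Mrc1 was at 117.6 against 176 CPM. Ccr2, a chemokine receptor of monocytes, was at 46.1 against 8.76 CPM, and Flt3, which marks dendritic cells, was at 3.18 CPM. The 10 dendritic markers summed to 480 CPM in the high cells and 338 CPM in those without chain UMIs, and the 6 B cell markers to 0 and 2.50 CPM. All 4 epithelial markers (Epcam, Cdh1, Krt8 and Krt18) were detected in macrophages, and summed to 221 CPM in the high cells against 37.5 CPM in cells without chain UMIs. Over all macrophages they summed to 130 CPM in ORFTOC and 37.9 CPM in FTOC. Aire mTECs held 5683 CPM of these markers in ORFTOC, and the chain ratio without cells that held markers of another compartment was the 1.32 given above. From cell to cell, the log2 level of H2-Aa correlated with that of Ciita at r = 0.617 in 141 ORFTOC macrophages and r = 0.456 in 46 FTOC macrophages, and with Ctss at r = 0.0156 in ORFTOC. Cells of a pool share a library and their depth, so these values are descriptions.

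**Figure D4:**
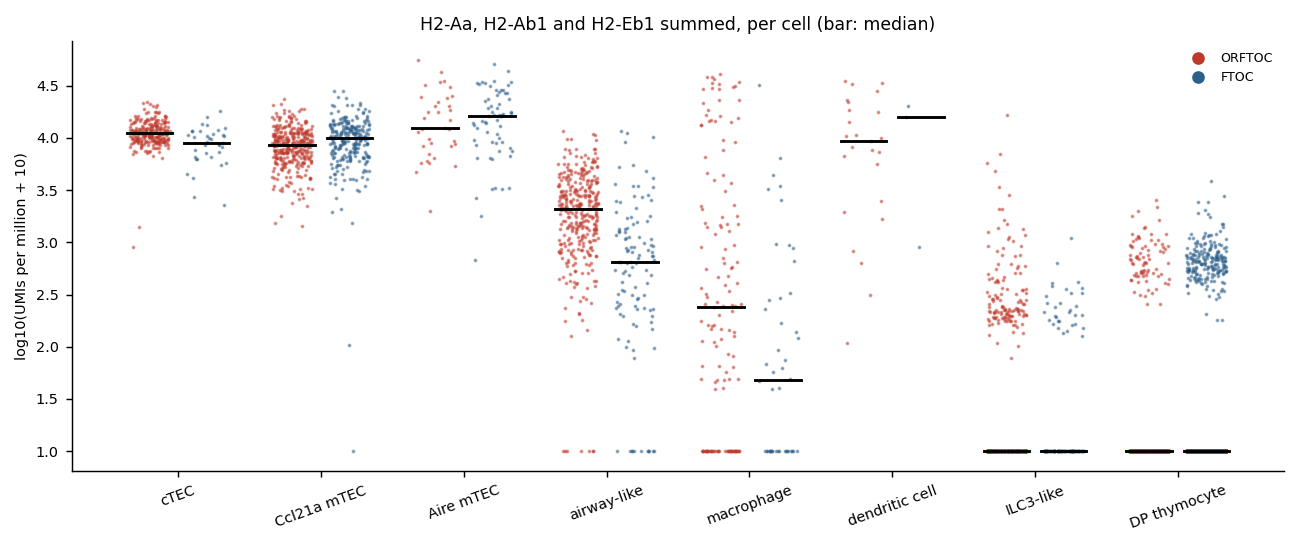
Summed H2-Aa, H2-Ab1 and H2-Eb1 in each cell (points, log10 of CPM plus 10) by population and pool, with the median as a bar. cTECs form a narrow band around 11050 CPM in ORFTOC, while macrophages spread from 0 to above 21710 CPM.

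In lymphoid cells the level of a gene was read against free RNA. The profile of barcodes with 10 to 100 UMIs held H2-Aa at 616 CPM and Cd74 at 1787 CPM, and a share of it, estimated for each population from genes that it should lack, gave an expected ambient level. In DP thymocytes H2-Aa was at 36.8 CPM for the ORFTOC pool and 33.1 CPM for the FTOC pool, which was 0.719 and 0.878 times the expected ambient level. Across the 4 thymocyte populations this quotient was 0.612 to 0.878 for H2-Aa, 0.494 to 1.25 for H2-Ab1, 0.542 to 1.58 for H2-Eb1 and 0.773 to 1.51 for Cd74. The chains and Cd74 of thymocytes were thus read as background.

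The other members were not in the proportion that free RNA would give. H2-Oa stood at 32.9 CPM in ORFTOC DP cells (22.8 to 46.0) and 36.2 in FTOC ones (29.3 to 44.3), which was 16.9 and 25.3 times the ambient expectation. In mature single-positive thymocytes it stood at 44.9 and 41.8 CPM, or 100.2 and 91.3 times. γδ T cells held 33.5 CPM in ORFTOC and 54.5 in FTOC, and ILC2-like cells 63.1 in ORFTOC, from 85 UMIs. H2-Oa was thus found above background in cells whose class II chains were at background. The interval of its ratio between pools held 1 in DP, mature single-positive, γδ and ILC3-like cells, whereas in the unnamed immune cluster 4 the ratio was 0.561 (0.389 to 0.797). Mature single-positive cells, with median depths of 6222 and 5763 UMIs, held an H2-Oa UMI in 21.1% of ORFTOC and 22.0% of FTOC cells, and in 5.18% and 4.05% when thinned to 1000 UMIs. In the shallower DP cells the shares were 5.53% and 5.64% at full depth and 3.14% and 3.25% when thinned.

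H2-DMa stood at 4.33 to 16.04 times the ambient expectation in the thymocyte populations. It had 24.2 and 13.1 CPM in DP cells and 15.2 and 14.9 CPM in mature cells. The overlapping gene Brd2 stood at 189.4 CPM in DP and 98.3 CPM in mature cells over both pools. Its part in the H2-DMa values was not examined. Ctss was at 1.05 and 1.13 times the expectation in DP cells and at 33.1 and 42.8 times in mature cells, where it reached 77.6 CPM in ORFTOC and 103 in FTOC. In γδ T cells ORFTOC cells held 127 CPM of Ctss (95.03 to 166) and FTOC cells 60.5 CPM (44.9 to 79.8). DP cells were thus at background for Ctss and mature T cells were above it in both pools.

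ILC3-like cells (451 and 121 cells, marked by Il22 and Il23r) were innate lymphoid cells in which class II has been described in other tissues. Their Ctss level was 225 CPM (206 to 246) for ORFTOC and 204 CPM (171 to 242) for FTOC, and Ciita was at 15.02 (10.3 to 21.2) and 15.1 (7.25 to 27.8), 16.7 and 19.9 times the ambient expectation. Ciita was found in 6.87% of ORFTOC and 5.79% of FTOC ILC3-like cells, against 0.691% and 0.138% of DP cells, and in 1.996% and 0.826% against 0.185% and 0.0722% when thinned. The median depth of ILC3-like cells was 4672 and 5355 UMIs. H2-Aa was at 81.2 CPM for ORFTOC and 27.2 CPM for FTOC, 3.08 and 1.23 times the expectation, and Cd74 at 342 and 201 CPM, 4.47 and 3.13 times. The chain ratio of ORFTOC over FTOC was 2.61 (1.93 to 3.58). Dendritic markers summed to 271 CPM in ORFTOC ILC3-like cells (6 of 10 detected) and 140.5 CPM in FTOC ones (2 of 10), and their part was not tested. In ORFTOC 10 of the 451 cells held 54.0% of the chain UMIs, 1 of them 88 UMIs, and without the 5 highest cells of each pool the levels were 108 and 46.6 CPM against 193 and 74.0. No chain UMI was found in 70.1% of ORFTOC and 73.6% of FTOC ILC3-like cells.

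**Figure D5:**
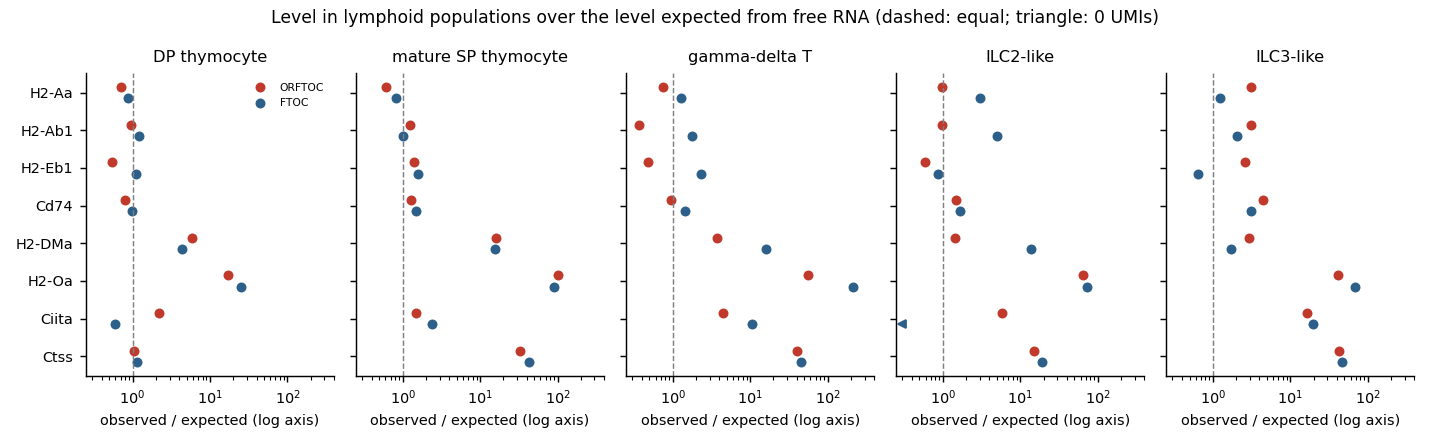
Level of the 8 genes in 5 lymphoid populations divided by the level expected from ambient RNA (log axis), for ORFTOC and FTOC. H2-Aa, H2-Ab1, H2-Eb1 and Cd74 lie near 1 in thymocytes, H2-Oa lies between 16.9 and 215 in all 5 populations, and Ctss rises from 1.05 in ORFTOC DP cells to 43.0 in ORFTOC ILC3-like cells.

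Genes with a pattern like that of the summed chains were sought over 50 points, each a cluster in 1 pool with at least 20 cells, among 6006 genes. Likeness was Pearson's r on log2(CPM + 10), and the points share libraries and ambient RNA, so the values are descriptions. Of the members, Cd74 had r = 0.991, H2-DMa 0.902, Ciita 0.882, H2-Oa 0.420 and Ctss 0.120. Outside the members H2-DMb1 ranked first at 0.952. It was followed by Fmnl2 (0.934), Fnbp1l (0.927), Rbm47 (0.910), Aplp2 (0.908), Cstb (0.907), Nectin1 (0.906), Spint1 (0.903), Tbc1d8 (0.902) and Mt1 (0.894). Spint1, a protease inhibitor of epithelial surfaces, and Nectin1, a junction protein, are epithelial genes, and most of the points with high chains were epithelial clusters. With a pseudocount of 1 CPM 8 of these 10 genes were again among the first 10, and with points of at least 50 cells 6 were.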

How the data were processed

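Gene expression and hashtag libraries came from 1 lane of both pools. The deposited matrix held raw UMI counts per gene and barcode, which the authors made with Cell Ranger 6.1.2 on mm10, per the submitters' processing notes, while its header names another major version. The T cell receptor library was left out. As in the study, barcodes needed at least 600 genes and 0.4 to 10% mitochondrial UMIs. HTODemux (Seurat 5.3.0, quantile 0.99) left out 590 doublets and 672 negatives, and a neighbour rule removed 591 doublets within pools. SCTransform (sctransform 0.4.2), 18 principal components and resolutions of 0.4 (all and epithelial cells) and 1 (immune cells) gave the clusters, with class II genes left out of the variable genes. Clusters were named from marker lists, and the limits of the naming rule, the bins of chain UMIs, the motif cores and the cells left out as highest were set after values had been seen. The genes and lists were chosen with earlier results of these data known. CPM values are summed UMIs of a population in a pool over all its UMIs, and their intervals are exact Poisson intervals. Ratios carry conditional exact binomial intervals and shares Clopper-Pearson intervals, a count under 3 was set to 3, and populations under 20 cells in a pool gave no ratio. Named genes were the 8 members, members of the pathway and interferon gamma lists past 2-fold or listed for comparison across TECs and macrophages, and the 10 genes most like the chains. No barcode is shared between gene expression libraries, since there was 1. The software was scipy 1.17.1 with pandas 2.3.3, under Python 3.11.15 and R 4.3.3. The interval and fold code was tested on simulated data. The alternatives tried were other clustering genes, hashtag rule, doublet rule, minimum of genes, normalisation, principal components, cell weights, ambient subtraction, left-out mixed cells, marker gates, depth, fold rule and pseudocount.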

Additional observations from a re-analysis of the deposited data

Results flagged for a closer look

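The ratio of ORFTOC over FTOC went above 1 in some populations and below 1 in Ccl21a mTECs, each with an interval that did not hold 1. The difference between populations was itself not tested, since each pool was 1 sample. For the summed chains the ratio was 3.897 in macrophages, 1.775 in airway-like cells, 1.233 in cTECs, 1.054 in Aire mTECs and 0.8727 in Ccl21a mTECs. For H2-Aa it was 3.797 in macrophages, 1.744 in airway-like cells, 1.303 in cTECs and 0.8951 in Ccl21a mTECs. For H2-Ab1 it was 4.106 in macrophages, 1.769 in airway-like cells, 1.268 in cTECs, 1.088 in Aire mTECs and 0.8844 in Ccl21a mTECs. For H2-Eb1 it was 3.769, 1.842, 1.095, 1.099 and 0.8295 in the same order of populations. For Cd74 it was 3.611, 1.746, 1.251, 1.046 and 0.8905, again in that order. For H2-DMa it was 1.409 in macrophages, 1.444 in airway-like cells, 1.302 in cTECs and 0.798 in Ccl21a mTECs. For H2-Oa it was 1.682 in cTECs and 0.5178 in Ccl21a mTECs.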

How the results depend on the processing

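Values are log2 ratios unless named otherwise, a value counted as moved when it left the counting interval of the reported one, and the cause of a change was not tested. Of 322 alternative values of the called ratios between pools, 16 reversed. In Ccl21a mTECs the chain ratio of ORFTOC over FTOC was -0.196 as reported, 0.003 when pools were set by a hashtag share of 0.8, -0.143 with 1000 genes per cell, -0.057 with log-normalised counts, -0.156 with 30 principal components and -0.017 with marker gates. With the hashtag share H2-Aa, H2-Ab1, Cd74 and H2-DMa turned to 0.011, 0.029, 0.025 and 0.246, and with gates H2-Aa and Cd74 turned to 0.023 and 0.058. In Aire mTECs the chains turned from 0.076 to -0.3 with the hashtag share, -0.077 with doublets kept and -0.052 with equal weight per cell. Under these, H2-Ab1 turned to -0.309, -0.049 and -0.017. H2-Eb1 turned to -0.218 and -0.026 under the hashtag share and doublets kept, and Cd74 to -0.192 under the hashtag share. The cTEC chain ratio of 0.302 moved to 0.189 with log-normalised counts, 0.377 without cells holding markers of another compartment and 0.251 with gates. The macrophage chain ratio of 1.963 moved to 2.069 with doublets kept, 1.704 with 1000 genes per cell, 1.315 without cells holding other markers and 2.227 with gates. Left out after the values had been seen, the highest cell of each pool moved it to 2.769 and the 5 highest to 4.928, the cTEC ratio without the 5 highest was 0.384, and the airway-like ratio (0.828) became 1.044 and 1.396. In these populations FTOC had fewer cells, so the same number left out was a larger part of that pool. Aire mTECs over cTECs in ORFTOC (0.572) gave 0.32 with the hashtag share, 0.483 with doublets kept, 0.706 with log-normalised counts, 0.671 with 30 principal components, 0.805 with gates and 0.519 after ambient subtraction. cTECs over Ccl21a mTECs in FTOC turned from -0.115 to 0.325 with the hashtag share, 0.155 with log-normalised counts and 0.051 with gates. There H2-Ab1 turned to 0.285, 0.084 and 0.057, and H2-Eb1 to 0.294 and 0.185 under the hashtag share and log-normalised counts. The share of ORFTOC macrophages with an H2-Aa UMI was 56.03% at full depth and 37.78% at 2000 UMIs, and 6 of 10 like genes were shared with points of at least 50 cells. Class II genes kept for clustering left no Ccl21a mTEC class, gates were not defined for airway-like and dendritic cells, and leaving out cells with other markers left too few Aire mTECs, so these gave no value. No paired analysis was possible because each pool was 1 sample and no test was run, and for the same reason no replicate could be left out.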
